A study of Mus musculus with 12 samples.

Results

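Loss of *Sema6d* in resting lung ILC2s was examined in 6 of the 12 RNA-seq libraries of the study, 3 from WT and 3 from *Sema6d*-/- mice given PBS. The libraries were taken by their labelled genotype and treatment, and the comparison covered the 6839 of 24346 genes with a value above 0 in all 6. Group 2 innate lymphoid cells (ILC2s) are tissue-resident lymphocytes that lack antigen receptors, depend on the transcription factor GATA3 and secrete type 2 cytokines such as IL-5 and IL-13 when epithelial alarmins reach them. Semaphorin 6D is a transmembrane ligand, first known from axon guidance, that signals through class A plexins and can also signal backwards into the cell that carries it. ILC2s of the resting lung hold large amounts of mRNA for surface receptors and for growth factors before any challenge.

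WT PBS libraries were from C57BL/6J mice (C57BL/6 in the labels) with both *Sema6d* alleles intact, and *Sema6d*-/- PBS libraries (labelled 6DKO) were from mice of the same strain that lack *Sema6d* in the germ line and so in every tissue, not in ILC2s alone. Both groups received PBS, the vehicle of IL-33, intranasally for 3 days. Mice in the study were 7 to 12 weeks old and were killed 24 h after the last dose. The other 6 libraries, used here for comparison and in the fits that include both treatments, were from WT and *Sema6d*-/- mice given IL-33 for 3 days, at 50 ng by the labels, although the paper states another dose. ILC2s were sorted from lung as CD45-positive cells that lacked lineage markers and carried Thy1.2 and ST2, the IL-33 receptor encoded by *Il1rl1*. Because the mutation is present in all cells, the libraries cannot tell an effect of lost *Sema6d* in ILC2s from one of its loss in the surrounding tissue. By the paper, C57BL/6J mice came from a commercial supplier, whereas the *Sema6d*-/- line was generated in earlier work, and littermates are not mentioned. An effect of the mutation can therefore not be told apart from other differences between the sources of the mice. Values are FPKM, fragments scaled for the length of the transcript and the size of the library, and all fold changes and standard errors (SE) are on the log2(FPKM + 1) scale, which understates differences of genes with low values.

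Sequencing depth could be compared only in relative terms, from weakly expressed genes, since FPKM values carry no read totals. With WT PBS replicate 3 set to 1, it was 0.833 and 1 in the other WT PBS libraries and 0.950, 0.969 and 1.13 in the *Sema6d*-/- PBS libraries, against 1.09 to 1.57 in the IL-33 libraries. Between 8920 and 10778 genes were above 0 in a PBS library. Of the 24346 genes, 11065 were listed at 0 in all 6 PBS libraries. Across the tested genes, which are not independent replicates, Pearson's r was 0.849 to 0.895 between libraries of the same genotype and 0.828 to 0.909 between libraries of different genotypes, and no libraries were identical. The lowest values belonged to *Sema6d*-/- PBS replicate 1, which did not exceed 0.859 with any other library. On the first principal component (29.3% of the variance) this library lay at 73.2 and the others between −29.7 and −8.46. The median SD of a gene was 0.523 in WT PBS and 0.541 in *Sema6d*-/- PBS libraries, compared with 0.234 and 0.221 in the IL-33 groups.

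The labelled cell type was checked against marker genes. All 16 genes of the ILC2 list were above 0, and the list summed to 8022, 7658 and 7971 FPKM in WT and to 9997, 6768 and 8564 FPKM in *Sema6d*-/- libraries. *Id2*, a repressor of E proteins that all ILCs need, was its most abundant gene. *Gata3*, the lineage-defining factor, was at 589.7, 466 and 424 FPKM in WT and 690.0, 382 and 466 FPKM in *Sema6d*-/- ILC2s. The values of the genotypes overlapped. *Cd4*, *Cd8b1* and *Cd5* were listed at 0 in all PBS libraries, and the T cell list was carried by *Cd3g*, which was at 189.7, 479.8 and 260.4 FPKM in WT and 269, 265 and 334 FPKM in *Sema6d*-/- ILC2s. *Ms4a1*, *Epx*, *Siglecf*, *S100a8* and *S100a9*, defining genes of B cells, eosinophils and neutrophils, were at 0 throughout. The lists of these 3 cell types summed to at most 8.90, 1.57 and 1.62 FPKM. *Trac*, *Trbc1*, *Ighm* and *Ly6g* were not analysed here. *Xist*, transcribed from the inactive X chromosome, was above 0 and the Y-linked *Ddx3y*, *Eif2s3y*, *Kdm5d* and *Uty* were at 0 in all libraries, so the groups did not differ in sex.

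*Sema6d*-/- PBS replicate 2 stood apart in transcripts of NK cells, macrophages and epithelium, although the sort kept CD45-positive cells and excluded those with NK1.1, F4/80 or CD11c. The 12 genes of the NK cell and ILC1 list summed to 236, 169 and 147 FPKM in WT and to 345, 2616 and 309 FPKM in *Sema6d*-/- libraries, with *Ccl5* as the most abundant. In *Sema6d*-/- PBS replicate 2, the granule protease *Gzma* was at 653 FPKM, *Nkg7* at 658 FPKM, the NK receptor gene *Klre1* at 65.8 FPKM and *Ncr1* at 58.9 FPKM. *Klre1* and *Ncr1* were at 0 in the other 5 PBS libraries, but *Nkg7* and *Ccl5* were higher in all 3 *Sema6d*-/- libraries than in any WT library, as was the sum of the list. In *Sema6d*-/- PBS replicates 1 and 3, that sum was carried by *Nkg7* and *Ccl5*, while *Gzma*, *Gzmb* and *Prf1* were at 0. WT libraries reached 11.6 FPKM for *Gzma*, 8.44 FPKM for *Gzmb* and 6.99 FPKM for *Prf1*. *Sema6d*-/- PBS replicate 2 had the highest sum of the 18 macrophage and monocyte genes, 238 FPKM against 1.20 to 17.2 FPKM elsewhere, with *Lyz2* at 112 FPKM, whereas *C1qa*, *Ly6c2* and *Fabp4* were at 0. It also had the highest sum of the 12 epithelial genes, 290.0 FPKM against 35.2 to 54.0 FPKM, of which *Ager*, a marker of type I alveolar cells, made up 199 FPKM, while the surfactant genes *Sftpc* and *Sftpb* were at 0. Dendritic cell genes summed to 20.5 FPKM and endothelial genes to 44.4 FPKM in this library, the highest of the 6. WT PBS replicate 3 differed in another way, with the histamine-forming enzyme *Hdc* at 134 FPKM against at most 4.93 FPKM elsewhere, although *Mcpt8* and *Fcer1a* were at 0 in all PBS libraries. The part of these transcripts in the results was not tested, and counts without *Sema6d*-/- PBS replicate 2 are given where the treatments are compared. In sorted bulk samples, fewer cells of a type and less RNA per cell cannot be told apart.

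**Figure D1:**
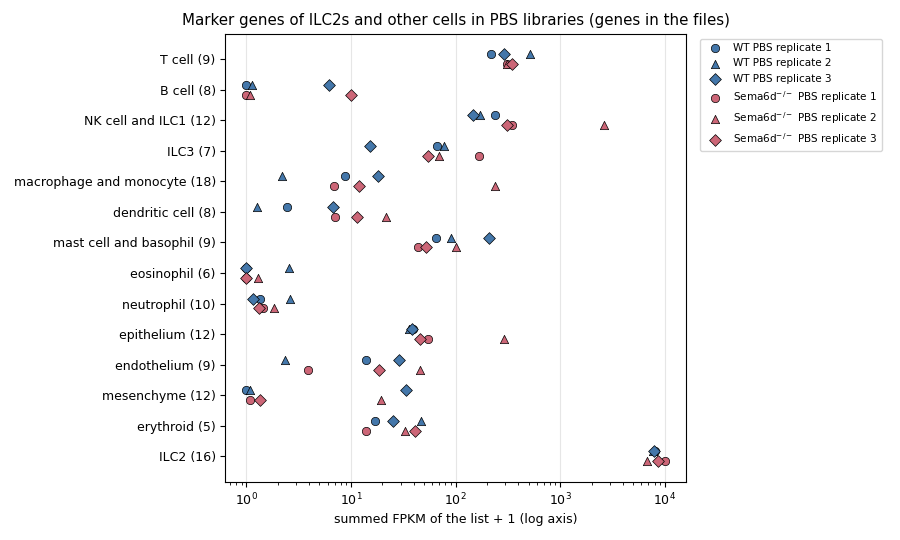
Summed FPKM + 1 (log axis) of each marker list in the 6 PBS libraries, with the number of genes of each list in parentheses, and a symbol for each replicate in blue for WT and red for *Sema6d*-/-. The ILC2 list sums to between 6768 and 9997 FPKM, and *Sema6d*-/- replicate 2 stands apart for NK cell, macrophage and epithelial genes.

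*Sema6d* transcripts were measured in every PBS library (chromosome 2, 124089969 to 124667770 in GRCm38). The gene was at 27.5, 46.1 and 37.5 FPKM in WT and 29, 22.9 and 19.8 FPKM in *Sema6d*-/- ILC2s. The lowest WT library lay below the highest *Sema6d*-/- library, so the groups overlapped, whereas under IL-33 every WT library was above every *Sema6d*-/- library (log2 fold change −0.89, SE 0.24). Under PBS the log2 fold change was −0.60 (SE 0.42; two-sided exact permutation test, p = 0.2, where 3 libraries against 3 cannot give a p below 0.10), and with quantile normalization p was 0.1. FPKM over a whole gene does not show which exons the reads come from, so reads of a mutated transcript could not be told from intact mRNA.

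Most relatives of *Sema6d* were listed at 0 in at least 1 PBS library. Of 31 semaphorins, plexins and neuropilins, 7 passed the filter, with a median log2 fold change of −0.31 against 0.00 for all genes tested. This median was carried by few genes and turned positive without WT PBS replicate 1 (0.17) or replicate 3 (0.22). The most abundant was *Sema4a*, a ligand on immune cells, at 188, 116 and 186 FPKM in WT and 111, 128 and 109 FPKM in *Sema6d*-/- ILC2s. *Sema4d*, another leukocyte semaphorin, was at 34.7, 25.9 and 23.5 FPKM in WT and 25.7, 33.9 and 53.2 FPKM in *Sema6d*-/- ILC2s. The receptor gene *Plxna1* was at 11.7, 1.42 and 6.66 FPKM in WT and 10.2, 9.91 and 4.16 FPKM in *Sema6d*-/- ILC2s, and *Plxna4* was listed at 0 in all 12 libraries. *Nrp1*, a coreceptor of class 3 semaphorins and of VEGF, was at 45.6, 23 and 31.5 FPKM in WT and 41.8, 50.1 and 57 FPKM in *Sema6d*-/- ILC2s. The genotypes overlapped for all of these genes.

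Between the genotypes, no gene of resting ILC2s passed the test across all genes. With limma and Benjamini-Hochberg adjustment, 0 of 6839 genes (0%) had an adjusted p under 0.05 and the smallest adjusted p was 0.654. At an unadjusted p under 0.05 there were 312 genes (4.56%), of which 161 (2.35%) were higher and 151 (2.21%) lower in *Sema6d*-/- ILC2s. WT and *Sema6d*-/- libraries were fully separated, without overlap, for 349 genes (5.10%) that were higher and 334 genes (4.88%) that were lower, 683 genes (9.99%) in all. For a gene with no difference between the genotypes, the arrangement of labels alone gives full separation with a probability of 0.10. This is the smallest p that the exact permutation test can give. The observed share of 9.99% was close to it, so separation alone does not mark a gene as changed. The median log2 fold change was 0.00. Genes are therefore described below by their values, and none is called changed under PBS. The limma p-values set the difference between group means against the variance between these few libraries. That variance is moderated with the variance of other genes.

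Other settings gave between 0 and 33 genes with an adjusted p under 0.05 in limma. A single model of all 12 libraries, in which the variance of a gene is estimated over both treatments, gave 33 genes, 14 higher and 19 lower, and 893 genes at an unadjusted p under 0.05. The IL-33 groups had the smaller median SD of a gene, 0.234 and 0.221 against 0.523 and 0.541 under PBS. The shared variance therefore draws on the less variable libraries. Its counts are not comparable with those of the PBS libraries alone, and none of the 33 is called changed. The 33 were picked by a small p under PBS, and all were without overlap there. Under IL-33, 13 of them were without overlap on the same side and 2 on the opposite side. Of all tested genes, 7.53% were higher and 8.55% lower without overlap under IL-33. Because the IL-33 libraries also entered the variance of this model, these counts are not independent of the choice of the 33. Filters that admit genes with zeros, a value above 0 in at least 1 library or a mean of at least 0.5 FPKM, each gave 1 gene, *Mir142b*. Without *Sema6d*-/- PBS replicate 1, limma gave 1 gene, *Snora64* (log2 fold change −3.68, adjusted p = 0.000511), a small nucleolar RNA gene at 1606, 2003 and 1406 FPKM in WT and 1551, 138 and 119 FPKM in *Sema6d*-/- libraries.

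Among the 10 lower genes with the smallest unadjusted p and no overlap, *Cbx7* stood first. *Cbx7* (chromosome 15, 79915807 to 79971119) encodes a chromobox protein of Polycomb repressive complex 1. It was at 27, 38.4 and 24 FPKM in WT and 3.19, 0.477 and 0.547 FPKM in *Sema6d*-/- ILC2s, a log2 fold change of −3.83 (SE 0.65, n = 3 per group). Every *Sema6d*-/- value was several-fold below every WT value. Exons of *Cbx7* overlap those of *Apobec3* on the opposite strand, and whether reads were shared was not tested.

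*Laptm5* (chromosome 4, 130913125 to 130936141), a lysosomal membrane protein of blood cells that limits antigen receptor levels, was at 883, 809 and 853 FPKM in WT and 559, 437 and 476 FPKM in *Sema6d*-/- ILC2s (log2 fold change −0.80, SE 0.18). These values were tight within each genotype, and separation of the genotypes was required by the choice of these genes. *Jun*, a subunit of the AP-1 transcription factor, was at 769, 657 and 927 FPKM in WT and 494, 348 and 381 FPKM in *Sema6d*-/- ILC2s (log2 fold change −0.94, SE 0.21). *Ndufa4*, a subunit of cytochrome c oxidase, was at 889, 866 and 647 FPKM in WT and 200.4, 373 and 435 FPKM in *Sema6d*-/- ILC2s (log2 fold change −1.31, SE 0.29). For both genes the lowest WT library exceeded the highest *Sema6d*-/- library by more than 100 FPKM. *Lsm8*, part of the ring that binds U6 small nuclear RNA in the spliceosome, was at 242, 247 and 211 FPKM in WT and 94, 115 and 113 FPKM in *Sema6d*-/- ILC2s (log2 fold change −1.12, SE 0.23). *2210013O21Rik* was at 139, 93.8 and 102 FPKM in WT and 40.5, 32 and 42.3 FPKM in *Sema6d*-/- ILC2s. Here, too, WT and *Sema6d*-/- libraries formed separate groups.

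The remaining lower genes were weakly expressed in *Sema6d*-/- libraries. *Slc27a1*, a fatty acid transport protein, was at 12.8, 9.57 and 5.86 FPKM in WT and 0.0561, 0.110 and 1.80 FPKM in *Sema6d*-/- ILC2s. *Tssc1*, which takes part in endosomal recycling, was at 12.3, 36.4 and 16.3 FPKM in WT and 0.0978, 1.72 and 2.89 FPKM in *Sema6d*-/- ILC2s. *Dhx37*, an RNA helicase of ribosome assembly, was at 9.71, 5.42 and 6.45 FPKM in WT and 1.59, 0.325 and 0.218 FPKM in *Sema6d*-/- ILC2s. In these 3 genes at least 1 *Sema6d*-/- library was close to 0. *4933439C10Rik* was at 7.63, 17.7 and 6.77 FPKM in WT and 0.261, 0.256 and 1.91 FPKM in *Sema6d*-/- ILC2s, and its exons overlap those of *Zkscan17* on the opposite strand.

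On the other side, *Emp1* (chromosome 6, 135362545 to 135383173), a small membrane protein with 4 transmembrane spans, was at 5.72, 5.80 and 9.60 FPKM in WT and 31.9, 36 and 33 FPKM in *Sema6d*-/- ILC2s (log2 fold change 2.14, SE 0.52, n = 3 per group). *Cap1* (chromosome 4, 122859047 to 122886056), which recycles actin monomers, was at 13.5, 23.1 and 17.7 FPKM in WT and 53.3, 82 and 58.4 FPKM in *Sema6d*-/- ILC2s (log2 fold change 1.78, SE 0.41). Every *Sema6d*-/- library was more than 2-fold above every WT library in both genes. Exons of *Cap1* overlap those of *Ppt1* on the opposite strand, and sharing of reads was not tested. *Stoml2*, a scaffold of the inner mitochondrial membrane, was at 17.2, 17.7 and 11 FPKM in WT and 80.7, 85.7 and 44 FPKM in *Sema6d*-/- ILC2s (log2 fold change 2.1, SE 0.44). *Slc35b2*, which carries the sulfate donor PAPS into the Golgi, was at 18.7, 17.2 and 24.3 FPKM in WT and 60.8, 64.3 and 79.4 FPKM in *Sema6d*-/- ILC2s (log2 fold change 1.72, SE 0.37). *Hprt*, the purine salvage enzyme that is often used as a reference gene, was at 60.3, 78.1 and 82.4 FPKM in WT and 219.6, 146 and 159.9 FPKM in *Sema6d*-/- ILC2s (log2 fold change 1.23, SE 0.28). These 3, like *Emp1* and *Cap1*, were named for a small unadjusted p without overlap, so their separation was required by the choice.

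Among the other higher genes, *Cryl1*, a dehydrogenase of the uronate cycle, was at 3.30, 1.83 and 2.41 FPKM in WT and 27.3, 13.7 and 14.7 FPKM in *Sema6d*-/- ILC2s. *Scaf4*, which binds RNA polymerase II and acts in transcript termination, was at 0.125, 1.35 and 2.40 FPKM in WT and 7.17, 12 and 9.96 FPKM in *Sema6d*-/- ILC2s. Both were below 4 FPKM in every WT library and higher in every *Sema6d*-/- library. *Sssca1* was at 2.35, 2.51 and 2.80 FPKM in WT and 16.2, 13.3 and 16.6 FPKM in *Sema6d*-/- ILC2s, and the kinase *Map3k15* stayed below 3 FPKM in all 6 libraries.

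Because no mouse was shared, the IL-33 libraries showed which of these differences recurred. Of the 20 genes with the smallest unadjusted p and no overlap under PBS, 10 in each direction, 14 had a log2 fold change of the same direction under IL-33. The other 6 were *Lsm8*, *4933439C10Rik*, *Slc35b2*, *Cryl1*, *Scaf4* and *Sssca1*. *Slc35b2* had a log2 fold change of −0.35 (SE 0.21) under IL-33, with overlap, and its interaction had an adjusted p of 0.301 (limma), the smallest of all, which *4933439C10Rik*, *Klf10* and *Cks2* shared. Across all tested genes, 3538 (51.7%) had the same direction in both treatments. Of the 683 genes without overlap under PBS, 89 (1.30% of all tested genes and 13% of the 683) were without overlap on the same side under IL-33, 42 above and 47 below WT. For 40 (5.86% of the 683) the side was the opposite one, and 554 overlapped. Under IL-33, 515 genes (7.53%) were higher and 585 (8.55%) lower without overlap, which is 16.1% of the tested genes. Without *Sema6d*-/- PBS replicate 2, which leaves fewer libraries to overlap, 1338 genes were without overlap under PBS, of which 157 were on the same and 91 on the opposite side under IL-33. With fewer libraries, the arrangement of labels alone gives full separation with a probability above 0.10. The rise from 683 to 1338 genes, and from 89 to 157, therefore does not show more differences.

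**Figure D2:**
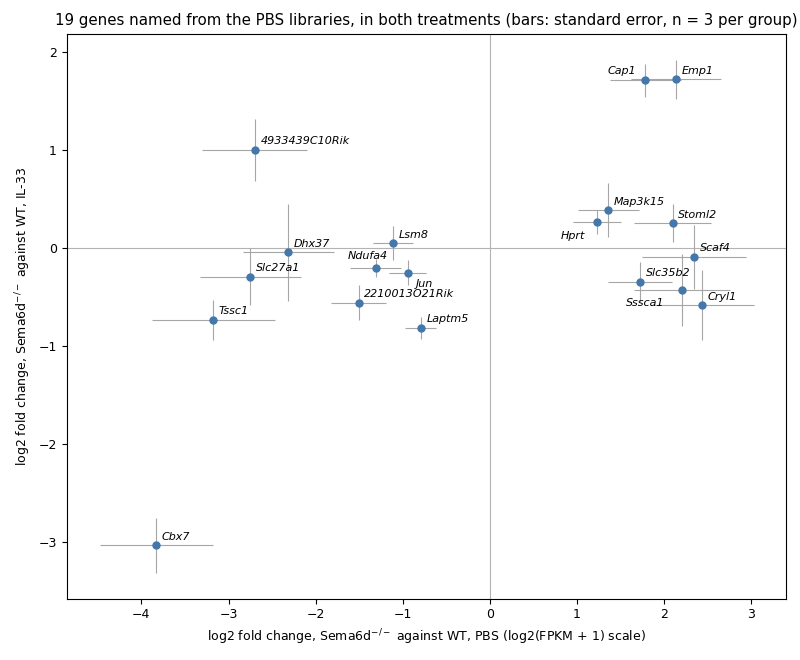
Log2 fold change on the log2(FPKM + 1) scale of *Sema6d*-/- against WT ILC2s under PBS (horizontal axis) and under IL-33 (vertical axis) for 19 of the 20 genes with the smallest unadjusted p and no overlap under PBS; points are estimates from 3 libraries per group and bars are standard errors. *Cbx7*, *Laptm5*, *Cap1* and *Emp1* lie far from 0 on the same side in both treatments, and *4933439C10Rik* on opposite sides.

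Some of the genes that passed the test under IL-33 were also separated by genotype under PBS. Under IL-33, limma called 13 of the 6839 genes at an adjusted p under 0.05 (0.190%; 721, or 10.5%, at an unadjusted p under 0.05). Of these 13 genes, 11 had the same direction under PBS and 7 were also without overlap on the same side: *Cbx7*, *Laptm5*, *Sh3bgrl3* and *Cd52*, which were lower, and *Cap1*, *Emp1* and *Ttbk2*, which were higher in *Sema6d*-/- ILC2s. *Cbx7* was at 20.6, 16.1 and 13.1 FPKM in WT and 0.651, 1.69 and 1.12 FPKM in *Sema6d*-/- ILC2s under IL-33 (log2 fold change −3.04, SE 0.28, adjusted p = 0.000983, limma). *Emp1* was at 11.6, 12.6 and 15.8 FPKM in WT and 47.7, 50 and 40.7 FPKM in *Sema6d*-/- ILC2s (log2 fold change 1.73, SE 0.20, adjusted p = 0.0042, limma), higher in every *Sema6d*-/- library as under PBS. *Cap1* was at 28.4, 25.3 and 23.7 FPKM in WT and 87, 76.5 and 97.8 FPKM in *Sema6d*-/- ILC2s (log2 fold change 1.71, SE 0.17, adjusted p = 0.000983, limma). *Laptm5* was at 1298, 1273 and 1293 FPKM in WT and 741, 620.2 and 849 FPKM in *Sema6d*-/- ILC2s (log2 fold change −0.82, SE 0.11, adjusted p = 0.0137, limma). For *Laptm5* and *Cap1* the log2 fold changes under PBS and IL-33 were within 0.1 of each other.

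*Cd52*, a small lipid-anchored glycoprotein of lymphocytes, and *Sh3bgrl3*, a thioredoxin-like protein, were among the abundant transcripts of these cells. Under PBS *Cd52* was at 2430.4, 3957 and 2562 FPKM in WT and 1558, 1789 and 2040.3 FPKM in *Sema6d*-/- ILC2s (log2 fold change −0.70, SE 0.21). Under IL-33 it was at 8198, 7742 and 8674 FPKM in WT and 4260.0, 4127 and 4859 FPKM in *Sema6d*-/- ILC2s (log2 fold change −0.90, SE 0.09, adjusted p = 0.000983, limma). In each treatment all WT libraries were above all *Sema6d*-/- libraries. *Sh3bgrl3* was at 3245, 2538 and 2794 FPKM in WT and 1869, 1696 and 1759 FPKM in *Sema6d*-/- ILC2s under PBS (log2 fold change −0.68, SE 0.16), again without overlap. Its exons overlap those of *Ubxn11* on the opposite strand, which was higher in *Sema6d*-/- ILC2s, at 37.3, 42.9 and 76.2 FPKM against 21.7, 24.4 and 23.2 FPKM in WT, and whether reads were shared was not tested. *Ttbk2*, a kinase that starts cilium growth, was at 1.31, 1.21 and 1.37 FPKM in WT and 3.09, 4.47 and 3.81 FPKM in *Sema6d*-/- ILC2s under PBS. The interaction of genotype and treatment, which tests whether the difference between the genotypes itself differs between PBS and IL-33, had adjusted p-values from 0.874 (*Sh3bgrl3*) to 0.988 (*Laptm5*) for these 7 genes (limma).

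The other 6 genes called under IL-33 overlapped under PBS, with 1 exception. *H2-Ab1*, the beta chain of an MHC class II molecule, was at 1.01, 38 and 61.8 FPKM in WT and 86.8, 28.6 and 83.1 FPKM in *Sema6d*-/- ILC2s under PBS, with a single low WT library. *Snap23*, a SNARE protein of exocytosis, was at 32.5, 100.4 and 61 FPKM in WT and 151, 69.3 and 82 FPKM in *Sema6d*-/- ILC2s. *Bcl2a1b*, an anti-apoptotic BCL2 relative with near-identical gene copies, was at 72, 101 and 74.6 FPKM in WT and 62.1, 23.8 and 87.4 FPKM in *Sema6d*-/- ILC2s. *Akr1c12* and *Amd2* also overlapped. The exception was *Cd24a*, a lipid-anchored surface glycoprotein, which lay on the other side under PBS. *Cd24a* was at 85, 94.5 and 63.9 FPKM in WT and 39, 60.9 and 28.6 FPKM in *Sema6d*-/- ILC2s under PBS, and at 0, 1.38 and 0.760 FPKM in WT and 4.89, 4.63 and 6.90 FPKM in *Sema6d*-/- ILC2s under IL-33.

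**Figure D3:**
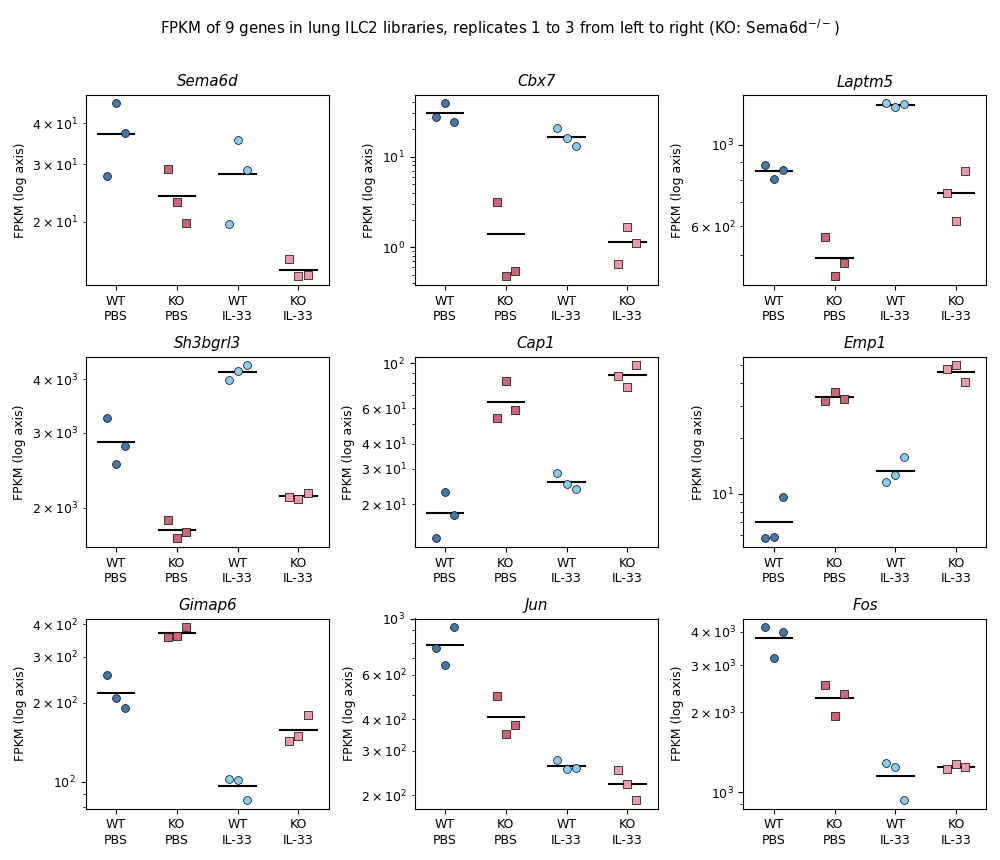
FPKM (log axis) of 9 genes in each of the 12 libraries, WT as circles and *Sema6d*-/- (KO) as squares, with a line at each group mean. *Cbx7*, *Laptm5*, *Sh3bgrl3*, *Cap1* and *Emp1* are separated by genotype in both treatments, *Fos* under PBS but not under IL-33, and *Sema6d* overlaps under PBS.

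Several of these genes lie close together on chromosome 4. Between 120 and 140 Mb of chromosome 4, 7 of 121 tested genes (5.79%, against 1.30% of all tested genes) were without overlap on the same side in both treatments: *Cap1*, *Cd52*, *Laptm5*, *Runx3*, *Sh3bgrl3*, *Snhg12* and *Ubxn11*, of which *Sh3bgrl3* and *Ubxn11* share exon positions. No other 20 Mb window held more than 4, but the share was similar or higher in some windows with fewer genes, such as 3 of 57 (5.26%) between 60 and 80 Mb of chromosome 18 and 2 of 39 (5.13%) between 40 and 60 Mb of chromosome 6, which holds *Gimap3* and *Gimap6*. Chromosome 4 as a whole held 13 of the 89 among 412 tested genes, against at most 9 on any other chromosome. The window was chosen after the positions of the named genes had been seen, and it got no test. The part of the source of the mice was not tested either. *Sh3bgrl3* lies at chromosome 4, 134127406 to 134128789, and *Cd52* at chromosome 4, 134082448 to 134095082. *Runx3*, a Runt factor of ILC and cytotoxic lymphocyte development, was at 14.7, 37.9 and 14.1 FPKM in WT and 13, 13 and 11.3 FPKM in *Sema6d*-/- ILC2s under PBS. The noncoding RNA *Snhg12*, host of small nucleolar RNAs, was at 62.8, 46.6 and 41.2 FPKM in WT and 23.3, 40.4 and 24.3 FPKM in *Sema6d*-/- ILC2s. For *Runx3* and *Snhg12* the nearest WT and *Sema6d*-/- libraries were close, and the groups were separated by small gaps.

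*Sema6d* itself is on chromosome 2. Within 10 Mb of it lie 283 genes, of which 86 were tested, with a median log2 fold change of 0.03. Of the 86 genes, 6 were higher and 4 lower in *Sema6d*-/- ILC2s without overlap, against 5.10% and 4.88% of all tested genes, and 5 had an unadjusted p under 0.05, against 4.56%. The 3 with the smallest unadjusted p were *Pcna*, *Tmem230* and *Ttbk2*. *Pcna*, the sliding clamp of DNA replication, was at 100.1, 98.3 and 104 FPKM in WT and 74.2, 46.9 and 25.7 FPKM in *Sema6d*-/- ILC2s, without overlap. *Tmem230* was at 34.3, 14.7 and 101 FPKM in WT and 119, 138 and 74.7 FPKM in *Sema6d*-/- ILC2s, with overlap.

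The interaction of genotype and treatment was tested in the 6785 genes above 0 in all 12 libraries. With limma, 0 genes (0%) had an adjusted p under 0.05, the smallest adjusted p was 0.301, and 387 genes (5.70%) had an unadjusted p under 0.05. Without WT PBS replicate 3, limma gave 4 genes, *Exosc8*, *Pxmp4*, *Rbm11* and *Utp11l*, and without *Sema6d*-/- PBS replicate 1 it gave 1, *Snora64*. The other alternatives tried gave 0.

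Immediate early genes, many of which encode transcription factors made within minutes of stimulation, ranged widely in abundance in resting ILC2s. All 22 genes of this list, which includes AP-1 factors, were tested. Of these, 3 were higher and 4 lower in *Sema6d*-/- ILC2s without overlap (31.8%, against 9.99% of all tested genes), 1 was higher and 4 lower at an unadjusted p under 0.05 (against 4.56% of all tested genes), and the median log2 fold change was −0.10 against 0.00 for all genes tested. *Fos*, the partner of JUN in AP-1, was at 4169, 3204 and 3997 FPKM in WT and 2527, 1935 and 2336 FPKM in *Sema6d*-/- ILC2s (log2 fold change −0.74, SE 0.17). Under IL-33 *Fos* was at 1287, 1239 and 934 FPKM in WT and 1219, 1276 and 1242 FPKM in *Sema6d*-/- ILC2s. The genotypes were apart under PBS and overlapped under IL-33, but the interaction did not pass the test (adjusted p = 0.538, limma). *Jund*, a further AP-1 subunit, was at 352, 261 and 299.5 FPKM in WT and 235, 190.3 and 229.7 FPKM in *Sema6d*-/- ILC2s. *Junb*, an AP-1 gene of similar abundance to *Fos*, was at 3219.7, 3197 and 3374 FPKM in WT and 3567, 2539 and 2999 FPKM in *Sema6d*-/- ILC2s, with overlap.

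Not all genes of this kind were lower. *Egr1*, a zinc finger factor of the same early response, was at 216, 239 and 243 FPKM in WT and 412, 407 and 266 FPKM in *Sema6d*-/- ILC2s (log2 fold change 0.61, SE 0.23). *Batf*, an AP-1 factor of type 2 lymphocytes, was at 1.19, 35.8 and 33.1 FPKM in WT and 73, 71.3 and 37.6 FPKM in *Sema6d*-/- ILC2s, and its log2 fold change of 2.08 (SE 0.98) was 0.74 without WT PBS replicate 1. For *Egr1* and *Batf* every *Sema6d*-/- library was above every WT library. *Nr4a1*, an orphan nuclear receptor induced by activation, was at 2367, 2023 and 1685 FPKM in WT and 2437, 2119.9 and 2107 FPKM in *Sema6d*-/- ILC2s, with overlap. *Dusp1*, a phosphatase that switches off MAP kinases, was at 3809.6, 2651 and 3614 FPKM in WT and 2799.7, 1833 and 2159.9 FPKM in *Sema6d*-/- ILC2s. The groups overlapped because the lowest WT library was below the highest *Sema6d*-/- library.

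Of 13 tested genes of lymphocyte quiescence, mostly KLF and FOX factors, 0 were higher and 4 lower without overlap, *Klf6*, *Klf9*, *Klf10* and *Btg1* (against 5.10% higher and 4.88% lower of all tested genes). Their median log2 fold change was −0.17. *Klf6* was at 525, 353 and 569.6 FPKM in WT and 334, 253 and 324 FPKM in *Sema6d*-/- ILC2s (log2 fold change −0.65, SE 0.24). *Klf10*, a TGF-β-inducible repressor, was at 111, 182 and 121 FPKM in WT and 51.1, 51.7 and 68.3 FPKM in *Sema6d*-/- ILC2s (log2 fold change −1.24, SE 0.31). Under IL-33 the order of the genotypes for *Klf10* was the opposite, with 69.7, 46.8 and 79.3 FPKM in WT and 92.5, 131 and 99.6 FPKM in *Sema6d*-/- ILC2s, and the interaction had an adjusted p of 0.301 (limma). *Btg1*, an antiproliferative gene and the most abundant of the list, was at 959, 999 and 939 FPKM in WT and 875, 768 and 754 FPKM in *Sema6d*-/- ILC2s. *Klf2*, which guides lymphocyte exit from tissue, overlapped, at 78.8, 55.3 and 84.2 FPKM in WT and 54.2, 72.4 and 81.6 FPKM in *Sema6d*-/- ILC2s.

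Among 15 NF-κB genes, 0 were higher and 1 was lower without overlap (6.67%, against 9.99% of all tested genes), and the median log2 fold change was −0.12. That gene was *Rela*, the p65 subunit, at 126, 102 and 97.2 FPKM in WT and 83.2, 85.4 and 89 FPKM in *Sema6d*-/- ILC2s. *Nfkbia*, the inhibitor that NF-κB induces against itself, was at 7244, 5218 and 4607 FPKM in WT and 5206, 2541 and 3577 FPKM in *Sema6d*-/- ILC2s, with overlap. Of 15 STAT and SOCS genes, 1 was without overlap (6.67%, median −0.04). This was *Stat4*, which transmits IL-12 signals, at 51.1, 38.8 and 40.5 FPKM in WT and 116, 79.8 and 73.9 FPKM in *Sema6d*-/- ILC2s (log2 fold change 1.01, SE 0.32). *Cish*, an abundant feedback inhibitor of STAT5 signalling, was at 743, 541 and 783 FPKM in WT and 798, 558 and 622 FPKM in *Sema6d*-/- ILC2s, with overlap.

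Of 15 tested cytokine and growth factor genes of ILC2s, 0 were higher and 1 was lower without overlap (6.67%, against 9.99% of all tested genes), and the median log2 fold change was −0.02. *Il5*, the growth factor of eosinophils, was at 832, 531 and 859 FPKM in WT and 999.7, 627 and 1129 FPKM in *Sema6d*-/- ILC2s. *Il13*, which drives mucus and goblet cell responses, was at 5.80, 1.10 and 7.60 FPKM in WT and 0.436, 8.83 and 26 FPKM in *Sema6d*-/- ILC2s. For both genes the values of the genotypes were interleaved. *Csf2*, which encodes GM-CSF, was the most abundant, at 2819, 3466 and 2341 FPKM in WT and 3044, 2514 and 2675 FPKM in *Sema6d*-/- ILC2s. *Areg*, an EGF receptor ligand of tissue repair, was at 1796, 1987 and 1875 FPKM in WT and 2188, 1416 and 2075 FPKM in *Sema6d*-/- ILC2s. These abundant mRNAs also overlapped. The lower gene was *Csf1*, the macrophage growth factor, at 35.9, 27.1 and 34.3 FPKM in WT and 16, 22.3 and 6.12 FPKM in *Sema6d*-/- ILC2s. *Il9* and *Il33* were listed at 0 in all 6 PBS libraries.

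Transcription factors of ILC2 identity had a median log2 fold change of −0.08 over 15 tested genes, which was 0.15 without *Sema6d*-/- PBS replicate 2. Of these, 1 was higher and 2 were lower without overlap (20%, against 9.99% of all tested genes). *Tox*, needed for ILC precursors, was at 20.6, 10 and 29 FPKM in WT and 34.1, 29.3 and 29.3 FPKM in *Sema6d*-/- ILC2s. *Bcl11b*, which holds ILC2 identity, was at 32.2, 26.9 and 28.1 FPKM in WT and 21.5, 25 and 23.8 FPKM in *Sema6d*-/- ILC2s. For *Tox* and *Bcl11b* the nearest libraries of the 2 groups were within 2 FPKM. *Rora*, the ROR nuclear receptor of ILC2s, was at 292, 141 and 209 FPKM in WT and 230.5, 141 and 225 FPKM in *Sema6d*-/- ILC2s, with overlap. *Gfi1*, a repressor that maintains *Gata3* and *Il1rl1*, was at 42.2, 5 and 14 FPKM in WT and 40.8, 38.7 and 50.8 FPKM in *Sema6d*-/- ILC2s. The WT range of *Gfi1* spanned the lower *Sema6d*-/- values.

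Of 18 tested receptors for alarmins and cytokines, 0 were higher and 1 was lower without overlap (5.56%, against 9.99% of all tested genes, median −0.09). *Il1rl1* was at 186, 117 and 148 FPKM in WT and 269, 196 and 168 FPKM in *Sema6d*-/- ILC2s. *Il7r*, the survival receptor of ILCs, was at 279.7, 356 and 309 FPKM in WT and 342, 291 and 314 FPKM in *Sema6d*-/- ILC2s. *Il2rg*, the common gamma chain, was the most abundant, at 2773, 3201 and 2909.6 FPKM in WT and 2998, 2727 and 2575 FPKM in *Sema6d*-/- ILC2s. None of these 3 separated the genotypes. The lower gene was *Tgfbr2*, a TGF-β receptor chain, at 82.2, 77.6 and 70.4 FPKM in WT and 31.7, 57.3 and 62.1 FPKM in *Sema6d*-/- ILC2s.

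Surface molecules of activation lay on both sides. Of 13 sorting and activation markers (median 0.02), 2 were higher and 1 was lower without overlap (23.1%, against 9.99% of all tested genes). *Klrg1*, an inhibitory lectin receptor of mature ILC2s, was at 349, 141 and 309 FPKM in WT and 498, 371 and 394 FPKM in *Sema6d*-/- ILC2s. Its log2 fold change of 0.75 (SE 0.33) was 0.34 without WT PBS replicate 2, the library with the lowest value. *Cd69*, which retains lymphocytes in tissue, was at 2973, 3318 and 2682 FPKM in WT and 2299.5, 2061 and 2251 FPKM in *Sema6d*-/- ILC2s under PBS. Under IL-33 *Cd69* lay the other way, at 1454, 1461 and 1603 FPKM in WT and 1753, 2044 and 2166 FPKM in *Sema6d*-/- ILC2s, and the interaction had an adjusted p of 0.326 (limma). *Ptprc*, which encodes CD45, was at 234, 240.4 and 239 FPKM in WT and 335, 269 and 289 FPKM in *Sema6d*-/- ILC2s. *Thy1*, used for the sort, was at 76.2, 78.7 and 22.2 FPKM in WT and 39.8, 52.8 and 26.9 FPKM in *Sema6d*-/- ILC2s, with overlap.

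Of 11 checkpoint receptor genes in the files, 4 were above 0 in all 6 libraries (1 higher and 0 lower without overlap, median 0.19). The higher gene was *Klrg1*, which is also in the list of sorting and activation markers. It made up 25% of the tested genes of this short list, against 9.99% without overlap among all tested genes. *Pdcd1*, which encodes PD-1, was at 472, 175 and 261 FPKM in WT and 312, 479.9 and 418 FPKM in *Sema6d*-/- ILC2s, with overlap. *Cd96*, a nectin-family receptor, was at 97.4, 92.1 and 133 FPKM in WT and 118, 88.9 and 55.8 FPKM in *Sema6d*-/- ILC2s, also with overlap. Of 10 costimulatory receptor genes (1 higher and 1 lower, median 0.07), *Tnfrsf9*, which encodes 4-1BB, was at 53.9, 24.7 and 19.9 FPKM in WT and 69.6, 81.9 and 58.5 FPKM in *Sema6d*-/- ILC2s. *Cd28* was at 1.93, 6.76 and 13.7 FPKM in WT and 1.34, 0.381 and 0.0894 FPKM in *Sema6d*-/- ILC2s. Both were without overlap, *Tnfrsf9* above and *Cd28* below WT. *Icos*, the costimulatory receptor of ILC2 maintenance, overlapped at 366, 268 and 403 FPKM in WT and 518, 311 and 420.1 FPKM in *Sema6d*-/- ILC2s, as did the abundant *Tnfrsf18*, which encodes GITR, at 2245, 1425 and 1977 FPKM in WT and 2276, 1538 and 1669 FPKM in *Sema6d*-/- ILC2s.

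Receptors for neuropeptides and lipid mediators included 1 higher and 0 lower genes without overlap among 12 tested (8.33%, against 9.99% of all tested genes, median 0.10). *Ltb4r1*, the receptor BLT1 for leukotriene B4, was at 243, 211 and 222 FPKM in WT and 351, 361 and 378 FPKM in *Sema6d*-/- ILC2s (log2 fold change 0.69, SE 0.19). The *Sema6d*-/- values were tight and all above 300 FPKM, and under IL-33 the genotypes overlapped. *Nmur1*, the neuromedin U receptor that marks ILC2s, was at 149.7, 86.3 and 111 FPKM in WT and 132, 93.5 and 159.6 FPKM in *Sema6d*-/- ILC2s, with overlap. Of 9 chemokine and sphingosine 1-phosphate receptors (0 higher and 1 lower, median 0.04), *S1pr4* was at 24.1, 25.3 and 9.90 FPKM in WT and 9.37, 5.01 and 3.03 FPKM in *Sema6d*-/- ILC2s. *Ccr8*, the most abundant of them, overlapped at 3480.1, 3997 and 4634 FPKM in WT and 3982, 3256 and 4053 FPKM in *Sema6d*-/- ILC2s. Among 11 integrins and adhesion molecules (0 higher and 1 lower, median −0.10), *Itgb7*, the beta chain of gut- and epithelium-binding integrins, was at 737, 826 and 843 FPKM in WT and 549.8, 732 and 733 FPKM in *Sema6d*-/- ILC2s. The nearest WT and *Sema6d*-/- libraries of *Itgb7* were almost equal.

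Gimap proteins are small GTPases of lymphocyte survival encoded in a cluster on chromosome 6. Of 7 tested genes, 2 were higher and 0 lower in *Sema6d*-/- ILC2s without overlap (against 5.10% and 4.88% of all tested genes), and the median log2 fold change was 0.31. *Gimap6* was at 255, 208 and 191 FPKM in WT and 356, 359.8 and 389 FPKM in *Sema6d*-/- ILC2s (log2 fold change 0.76, SE 0.21). Under IL-33, with lower levels in both genotypes, *Gimap6* was at 102, 102 and 85.1 FPKM in WT and 143, 149 and 180.2 FPKM in *Sema6d*-/- ILC2s (log2 fold change 0.70, SE 0.14). In both treatments all *Sema6d*-/- libraries were above all WT libraries. *Gimap3* was at 375, 306 and 419 FPKM in WT and 484, 494 and 498 FPKM in *Sema6d*-/- ILC2s (log2 fold change 0.44, SE 0.19), also without overlap. *Gimap8* was lower on average in *Sema6d*-/- ILC2s, at 16.6, 20.6 and 36.4 FPKM against 31.8, 51.2 and 40.5 FPKM in WT, with overlap. Under IL-33 *Gimap8* was higher without overlap, at 19.1, 14.8 and 19.6 FPKM against 11.2, 6.93 and 9.02 FPKM in WT (interaction adjusted p = 0.757, limma).

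Chaperones had a higher share of genes without overlap than all tested genes (23.8% against 9.99%), on both sides of WT. Of 10 tested BCL2 family genes (0 higher and 1 lower, median −0.11), *Mcl1*, the anti-apoptotic protein on which ILC2s depend, was at 184, 144 and 126 FPKM in WT and 108, 119 and 88.4 FPKM in *Sema6d*-/- ILC2s (log2 fold change −0.51, SE 0.26). Among 21 chaperones (2 higher and 3 lower, median −0.02), *Hspa5*, the chaperone BiP of the endoplasmic reticulum, was at 1369, 955 and 864 FPKM in WT and 785, 655 and 652 FPKM in *Sema6d*-/- ILC2s. *Hspa8*, its cytosolic relative, was at 1885, 2548 and 2013 FPKM in WT and 1876, 1553 and 1425 FPKM in *Sema6d*-/- ILC2s. These 2 abundant chaperones were lower in all *Sema6d*-/- libraries, *Hspa8* by a small gap. The mitochondrial chaperonin pair lay on the other side: *Hspd1* was at 53.3, 61.7 and 50.6 FPKM in WT and 73.7, 71.2 and 98.3 FPKM in *Sema6d*-/- ILC2s, and *Hspe1*, which shares its promoter region, at 114, 82.3 and 99.2 FPKM in WT and 159, 158 and 121 FPKM in *Sema6d*-/- ILC2s. Exons of these 2 genes overlap on opposite strands, so they may not be independent members of the list. *Hspa9*, which imports proteins into mitochondria, was at 88.6, 71.7 and 71.8 FPKM in WT and 0.154, 58.8 and 69.4 FPKM in *Sema6d*-/- ILC2s, of which only *Sema6d*-/- PBS replicate 1 was far from WT. Of 21 genes of the unfolded protein response, 1 was higher and 2 were lower (14.3%, against 9.99% of all tested genes, median 0.06). *Pdia3*, a disulfide isomerase, was among the lower genes, at 512, 565 and 505 FPKM in WT and 384, 499 and 397 FPKM in *Sema6d*-/- ILC2s.

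Of 83 cytosolic ribosomal protein genes, 1 was higher and 1 was lower without overlap under PBS (2.41%, against 9.99% of all tested genes, median −0.05). Under IL-33, where 7.53% of all tested genes were higher and 8.55% lower, 0 were higher and 31 lower (median −0.20). The PBS median turned positive with quantile normalization (0.04) and without WT PBS replicate 2 (0.08) or *Sema6d*-/- PBS replicate 2 (0.02). Of 78 subunits of oxidative phosphorylation, 5 were higher and 6 lower under PBS (14.1%, against 9.99% of all tested genes, median −0.00). Under IL-33, 2 of these subunits were higher and 30 lower (median −0.17). Whether the medians differ between the treatments was not tested. *Sdhd*, which anchors succinate dehydrogenase in the membrane, was at 51.1, 106 and 97.4 FPKM in WT and 174, 132 and 147 FPKM in *Sema6d*-/- ILC2s, and *Uqcrb*, a subunit of complex III, at 468, 382 and 338 FPKM in WT and 516, 523 and 697 FPKM in *Sema6d*-/- ILC2s. *Atp5d* of the ATP synthase, by contrast, was at 528, 485 and 441 FPKM in WT and 386, 246 and 354 FPKM in *Sema6d*-/- ILC2s. These genes and *Ndufa4* lay on different sides of WT. Of 39 proteasome subunits, 0 were higher and 2 were lower under PBS (5.13%, against 9.99% of all tested genes, median −0.17). *Psma7* was at 297, 323 and 250.3 FPKM in WT and 164, 221 and 235 FPKM in *Sema6d*-/- ILC2s. *Psmc2* was at 64.4, 61.4 and 53.5 FPKM in WT and 28.2, 33.2 and 46.3 FPKM in *Sema6d*-/- ILC2s. Of 17 glycolysis genes, 1 was higher and 1 was lower under PBS (11.8%, against 9.99% of all tested genes, median −0.15). Of 13 genes of PPARγ and lipid metabolism, 0 were without overlap (median 0.18, but −0.33 when at least 5 FPKM was required in all 6 libraries).

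Part of the cell cycle list was near 0 at rest. *Mki67*, *Top2a*, *Cdk1* and 10 others of the list were at 0 in at least 1 PBS library and were not tested. *Mki67*, which marks cycling cells, did not exceed 0.0279 FPKM in any PBS library. Of the 18 tested genes, 1 was higher and 3 were lower without overlap (22.2%, against 9.99% of all tested genes, median −0.14). *Ccnd2*, a cyclin of G1, was at 89, 80.1 and 82.3 FPKM in WT and 110.0, 118 and 114 FPKM in *Sema6d*-/- ILC2s. *Cdk4*, its kinase partner, was at 117, 102 and 110.0 FPKM in WT and 18.2, 91 and 58.1 FPKM in *Sema6d*-/- ILC2s. The cyclin was higher and the kinase lower in *Sema6d*-/- libraries, and exons of *Cdk4* overlap those of *Tspan31* on the opposite strand. Of 12 tested interferon-stimulated genes, 0 were without overlap (median −0.00). Of 12 MHC and antigen presentation genes, 1 was higher and 1 was lower (16.7%, median 0.14). The higher gene was *H2-K1*, at 2865, 2919 and 2833 FPKM in WT and 3095, 3267 and 3246 FPKM in *Sema6d*-/- ILC2s. The lower gene was the peptide transporter *Tap1*, whose exons overlap those of *Psmb9* on the opposite strand. *Tap1* was at 26.8, 21.3 and 27.2 FPKM in WT and 14.1, 19.5 and 9.72 FPKM in *Sema6d*-/- ILC2s.

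Of 9 genes linked to regulatory ILC2s, 5 passed the filter, with 0 higher and 1 lower without overlap (median −0.46, and −0.12 without WT PBS replicate 2). *Rara*, a retinoic acid receptor, was the lower gene, at 36, 34.2 and 26.3 FPKM in WT and 20.2, 15.3 and 19.6 FPKM in *Sema6d*-/- ILC2s. *Nfil3*, a basic leucine zipper factor of ILC precursors, overlapped at 134, 112 and 122 FPKM in WT and 124, 80.7 and 69.4 FPKM in *Sema6d*-/- ILC2s. *Il10*, *Id3*, *Retnla* and *Foxf1* did not pass the filter. *Il10* overlapped near 0, at 2.11, 0 and 0.251 FPKM in WT and 0, 0.259 and 0 FPKM in *Sema6d*-/- ILC2s. *Id3* was lower without overlap, and its values are given among the results flagged for a closer look. Over the 27 lists as a whole, 0 members had an adjusted p under 0.05 in limma, and the share of genes without overlap was above that of all tested genes (9.99%) in 16 lists and below it in 11. It was highest for immediate early and AP-1 genes (31.8%), quiescence genes (30.8%) and Gimap genes (28.6%), lists of 22, 13 and 7 tested genes, and lowest among the large lists for ribosomal proteins (2.41%). The lists were chosen with earlier results known, and these shares were not tested.

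**Figure D4:**
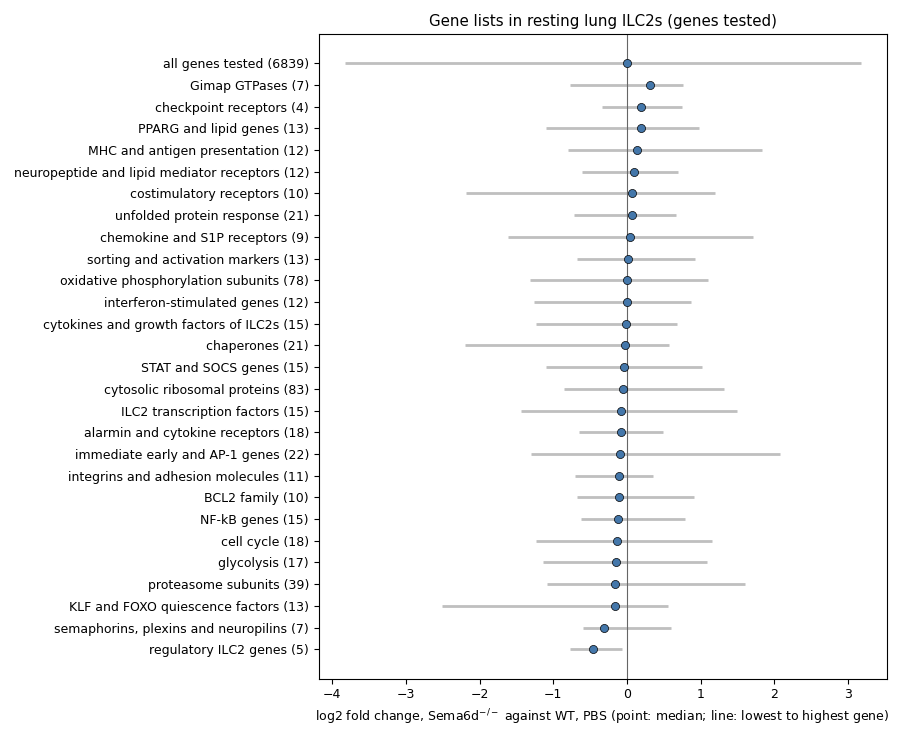
Median log2 fold change (point) and lowest to highest member (line) of *Sema6d*-/- against WT ILC2s under PBS, on the log2(FPKM + 1) scale, for all tested genes and 27 gene lists with the number of tested genes in parentheses. All list medians lie between −0.46 and 0.31, and the range within each list is wider than the distance of its median from 0.

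The filter left out genes that were listed at 0 in a whole genotype. Of these, 42 were at 0 in all WT and above 0 in all *Sema6d*-/- PBS libraries, and 35 the reverse. They belonged to the 945 genes that were above 0 in exactly 3 PBS libraries. For such a gene, the arrangement of labels alone gives a split by genotype with a probability of 0.10. The 42 and 35 genes together were a smaller share of the 945, so the split alone does not mark a gene as changed. Among the 42, the genes with the highest means were *Gm5547*, *Magohb*, *Ccdc134*, *Tctex1d2* and *Glmn*. *Magohb*, a core protein of the exon junction complex, was at 0 in all WT libraries and at 41.4, 16.6 and 11.4 FPKM in *Sema6d*-/- ILC2s. *Glmn*, a regulator of cullin ubiquitin ligases, was at 0 in all WT libraries and at 14.2, 9.20 and 23.8 FPKM in *Sema6d*-/- ILC2s under PBS. Under IL-33 *Glmn* was again higher, at 0, 1.99 and 2.19 FPKM in WT and 8.04, 5 and 7.04 FPKM in *Sema6d*-/- ILC2s, whereas the values of *Magohb* overlapped, at 14.2, 17.1 and 15.6 FPKM in WT and 10.4, 4.53 and 15.5 FPKM in *Sema6d*-/- ILC2s. Exons of *Glmn* overlap those of other genes.

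Of the reverse kind, *Mir142b*, *4930481A15Rik*, *Hpgd* and *1700096K18Rik* were among those with the highest means. *Mir142b*, at the locus of a microRNA of blood cells, was at 534, 296 and 297 FPKM in WT and listed at 0 in all *Sema6d*-/- libraries under PBS. Under IL-33 it was at 0, 179 and 131 FPKM in WT and 0, 136 and 124 FPKM in *Sema6d*-/- libraries. A feature this short is counted from few reads, and it was at 0 in 1 library of each genotype under IL-33. *Hpgd*, which inactivates prostaglandins, was at 12.5, 16.6 and 7.11 FPKM in WT and listed at 0 in all *Sema6d*-/- libraries under PBS, and at 1.57, 1.99 and 0 FPKM in WT and 3.90, 1.34 and 0 FPKM in *Sema6d*-/- ILC2s under IL-33. Of the genes described in the last 2 paragraphs, *Glmn* and *1700096K18Rik* were on the same side without overlap in both treatments.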

How the data were processed

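RNA of ILC2s sorted from mouse lung was sequenced in 12 libraries, grouped by their labelled genotype and treatment. Per the labels, the authors mapped reads to mm10 with TopHat2 2.1.1 and Bowtie2 and deposited FPKM values from Cuffdiff 2.2.1, scaled for transcript length and library size. Versions and library kit differ between paper (a stranded kit) and labels (SMART-Seq HT, Nextera), so the strand of reads is uncertain where genes overlap. Such overlaps are stated for some of the named genes and not for all, *Junb* and *Dusp1* among those left out. Counts are not recoverable from FPKM, so no count model and no counting interval were used. Relative depth came from 1178 genes below 3 FPKM.

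The genotypes were compared under PBS with limma 3.58.1 (lmFit, eBayes with a trend, Benjamini-Hochberg) in R 4.3.3 on log2(FPKM + 1), over genes above 0 in all 6 libraries, without covariates. The same fit was run on the IL-33 libraries for the same genes, and the interaction on all 12. The level of *Sema6d* was also compared with a two-sided exact permutation test. Summaries and figures used Python 3.11.15, numpy 2.4.6, pandas 2.3.3 and matplotlib 3.10.9. Gene positions are from GENCODE vM21 (GRCm38) by symbol and cover 99.3% of the tested genes.

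By rule, the genes named were, since none passed, the 10 with the smallest unadjusted p and no overlap in each direction, *Sema6d* and genes of the study, of each list the most abundant gene and those with the largest difference in each direction, up to 5 genes at 0 in each genotype, and 3 near *Sema6d*. Not every gene that the rule gives is described. All other genes named, among them *Fos*, *Klf10*, *Egr1*, *Cd69*, *Cd52* and *Sh3bgrl3*, were chosen after their values were seen. Members, lists and tests were chosen with earlier results of these data known. The alternatives were a pseudocount of 0.1, other filters, quantile and median ratio scaling, eBayes without a trend or robust, weights per library, a replicate block, all 12 libraries in 1 fit and leaving out each library. The removal of *Sema6d*-/- PBS replicate 2 from the comparison with IL-33 and the chromosome windows were chosen after seeing the data. Flow cytometry and other experiments of the study were not analysed here.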

Additional observations from a re-analysis of the deposited data

Results flagged for a closer look

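Of the genes that the naming rule gives, 2 had their genotypes on opposite sides in the 2 treatments, with all libraries of each group apart, as did 40 of all tested genes. *4933439C10Rik* was at 7.63, 17.7 and 6.77 FPKM in WT and 0.261, 0.256 and 1.91 FPKM in *Sema6d*-/- ILC2s under PBS, but at 1, 3.20 and 2.93 FPKM in WT and 6.15, 4.39 and 5.89 FPKM in *Sema6d*-/- ILC2s under IL-33. The log2 fold changes were −2.70 and 1.0, a difference of −3.70, which did not pass the test of the interaction (adjusted p = 0.301, limma). This RNA shares exon positions with *Zkscan17* on the opposite strand.

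*Id3*, an inhibitor of E proteins, was at 25.5, 34.1 and 15.5 FPKM in WT and 0, 10.7 and 0 FPKM in *Sema6d*-/- ILC2s under PBS, and at 6.13, 13.1 and 13 FPKM in WT and 15.4, 18.8 and 20.6 FPKM in *Sema6d*-/- ILC2s under IL-33. All *Sema6d*-/- libraries were below WT under PBS and above WT under IL-33, a difference of −4.23 between the log2 fold changes. *Id3* was listed at 0 in 2 *Sema6d*-/- PBS libraries and so was not among the genes fitted here, and the difference was not tested.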

How the results depend on the processing

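Between the genotypes under PBS, limma gave 0 genes at an adjusted p under 0.05 with a pseudocount of 0.1, at least 5 FPKM, quantile or median ratio scaling, eBayes without the trend or robust, and array weights, with 208 to 340 genes at an unadjusted p under 0.05. With the replicate block the count was 0 (331 at an unadjusted p under 0.05), and the *Sema6d* log2 fold change was −0.60. It was 1 when genes above 0 in at least 1 library (13281 genes) or with a mean of at least 0.5 FPKM (11058 genes) were admitted. With all 12 libraries in 1 fit, where the less variable IL-33 libraries enter the variance, the count was 33. Leaving out each library gave 0 to 1. The interaction gave 0 with the replicate block (372 at an unadjusted p under 0.05) and 0 to 4 when a library was left out. The causes were not tested. Same-numbered libraries are from different mice. After the group means were removed, they were correlated at r = 0.02, −0.00 and 0.01, so the numbers showed no pairing. The log2 fold change of *Sema6d* was −0.79 to −0.43 when a library was left out. Of the 20 genes named by p, 13 to 15 kept their direction under IL-33 in every alternative tried. The count of genes on the same side in both treatments, 89, was 157 without *Sema6d*-/- PBS replicate 2, a removal chosen after seeing the data that leaves fewer libraries to overlap. These counts are therefore not comparable. Of 1415 recomputed log2 fold changes of 85 named genes, 1411 had the direction reported and 4 the opposite: *Cpt1a* (−0.189) and *Sdf2l1* (−0.0506) without WT PBS replicate 2, *Itgb1* (−0.108) without WT PBS replicate 1, and *Psmd5* (0.590) without *Sema6d*-/- PBS replicate 1. When other libraries were left out, these genes reached 1.69 (*Cpt1a*), 1.22 (*Sdf2l1*), 0.736 (*Itgb1*) and −2.03 (*Psmd5*). Of 459 recomputed medians of the 27 lists, 18 moved by more than the spread between libraries. Depth is known only in relative terms, so it cannot be said which values of 0 were below detection.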

Other observations

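The genes below were chosen after their values were seen, and *Elavl4* was not among those tested. *Elavl4*, an RNA-binding protein of neurons (chromosome 4, 110203722 to 110351909), was listed at 0 in all 6 WT libraries. It was at 11.7, 11.6 and 10.1 FPKM in *Sema6d*-/- ILC2s under PBS and at 9.77, 4.78 and 4.53 FPKM in *Sema6d*-/- ILC2s under IL-33. *H2-Q9*, a nonclassical MHC class I gene with closely related neighbours, was at 369.6, 326 and 366 FPKM in WT and 408, 549.6 and 574 FPKM in *Sema6d*-/- ILC2s under PBS, and at 418, 519.6 and 453 FPKM in WT and 886, 599 and 862 FPKM in *Sema6d*-/- ILC2s under IL-33. Every *Sema6d*-/- library was above every WT library of the same treatment in both genes.

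IL-17 genes, which define ILC3s and which some activated ILC2s also express, were measured in resting libraries. *Il17f* was at 54, 61.7 and 0 FPKM in WT and 103, 0.147 and 0 FPKM in *Sema6d*-/- ILC2s, and *Il17a* at 12, 14.1 and 6.01 FPKM in WT and 55.8, 8.86 and 51.4 FPKM in *Sema6d*-/- ILC2s. The genotypes overlapped for both genes. The ILC3 genes *Il22* and *Il23r* were at 0 in all PBS libraries. *Cks2*, a cyclin-dependent kinase subunit, was at 216, 144 and 197 FPKM in WT and 70.2, 107 and 75.8 FPKM in *Sema6d*-/- ILC2s under PBS. Under IL-33 the order of its groups was the opposite, at 140.4, 106 and 119 FPKM in WT and 164, 155 and 197 FPKM in *Sema6d*-/- ILC2s.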
